A study of Mus musculus with 9 samples.

Results

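Transcription factors that are known to set or keep endothelial identity were followed in endothelial cells of the mouse bone marrow, the cells that line the marrow vessels. The 10 factors are Erg, Fli1 and Ets1 of the ETS family, Sox7, Sox17 and Sox18 of the SoxF group, Gata2, Tal1, Foxo1 and Nr2f2. They were chosen by gene symbol from 52183 genes, with earlier results of these data known. All 10 were found, and all 10 were among the 11796 genes tested, which averaged 1 FPKM or more across the libraries. FPKM is the number of sequenced fragments per length of a gene and depth of a library.

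The 9 libraries form 3 groups of 3. The first group came from mice aged 18 months that are labelled as Thbs1 knockouts, Thbs1 being the gene that encodes thrombospondin-1, a matrix protein that cells secrete. The second came from control mice aged 18 months, called aged controls here, and the third from control mice aged 3 months, called young controls. An antibody against VE-cadherin, a protein of endothelial junctions, was injected into the mice, and the cells were then sorted from the long bones. The labels name no strain, no sex, no deleted part of Thbs1 and no genotype of the controls beyond that word. Whether the libraries stand for separate or pooled mice is not stated either, and the p-values therefore reflect library spread that may be technical.

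Thbs1 itself went against the group label. It had 25.63, 19.45 and 19.84 FPKM in the libraries labelled knockout, against 0.67, 0.82 and 1.17 FPKM in the aged controls and 4.55, 3.89 and 4.18 FPKM in the young controls. Thbs1 was also called lower in aged than in young controls, by -1.47 on the log2(FPKM + 1) scale (adjusted p = 0.00385 by limma). The group is therefore called "labelled knockout" throughout, and the files do not show which part of the gene the fragments came from. They also do not show whether the labels of the groups aged 18 months were exchanged. Every direction below that uses the aged controls or the labelled knockout libraries, the comparison of ages included, follows the labels as given. Defining markers were read beside the endothelial label. Cdh5, the gene for VE-cadherin, lay between 153.15 and 176.54 FPKM in all 9 libraries, and Pecam1 between 116.47 and 174.72 FPKM. Vwf, another endothelial marker, was low, between 0.56 and 1.98 FPKM. VE-cadherin is the protein that the injected antibody binds, so Cdh5 is no independent check of the sort. The lymphatic markers Pdpn, Lyve1 and Reln reached at most 0.02, 0.15 and 0.03 FPKM, and the general leukocyte marker Ptprc at most 0.13 FPKM. Other markers were present, with up to 3.84 FPKM of the lymphatic regulator Prox1, 76.81 of the plasma cell gene Jchain, 74.91 of the neutrophil gene S100a8 and 47.5 FPKM of the myeloid gene Lyz2. Recovered depth ran from 22160000 to 30410000 fragments, and the 3 labelled knockout libraries were the deepest.

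ETS factors bind a short GGAA core that is found at most endothelial gene promoters and enhancers, and ERG and FLI1 are known to hold mature endothelial cells in their state. The SoxF factors act beside them in arterial, venous and lymphatic specification and can replace one another in part. GATA2 and TAL1 work in shared complexes in endothelial cells and in blood stem cells, FOXO1 restrains endothelial growth under the control of AKT, and NR2F2, also called COUP-TFII, keeps venous identity by holding Notch signalling down.

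By level, the factors formed an order that covered a wide range. Means over the 9 libraries were 273.8 FPKM for Sox18, 161.6 for Ets1, 63.62 for Fli1, 50.4 for Sox7, 25.8 for Nr2f2, 22.8 for Gata2, 17.3 for Foxo1, 17.0 for Sox17, 12.1 for Erg and 3.81 FPKM for Tal1. Sox18 stood at percentile 98.9 of the genes tested and Tal1 at percentile 33.2. Nr2f2 and Gata2 did not differ beyond their spread, with Nr2f2 the higher in 6 of 9 libraries and overlap in 2 of the 3 groups, and the same counts held for Foxo1 and Sox17. Sox18 exceeded Ets1 in 8 of 9 libraries and Fli1 exceeded Sox7 in 8 of 9, while the other neighbours kept their order in all 9. The ratio of the highest to the lowest library was 2.23 for Sox7 and 2.17 for Erg, and ran from 1.46 for Fli1 to 1.71 for Sox18 in the other 8.

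**Figure D1:**
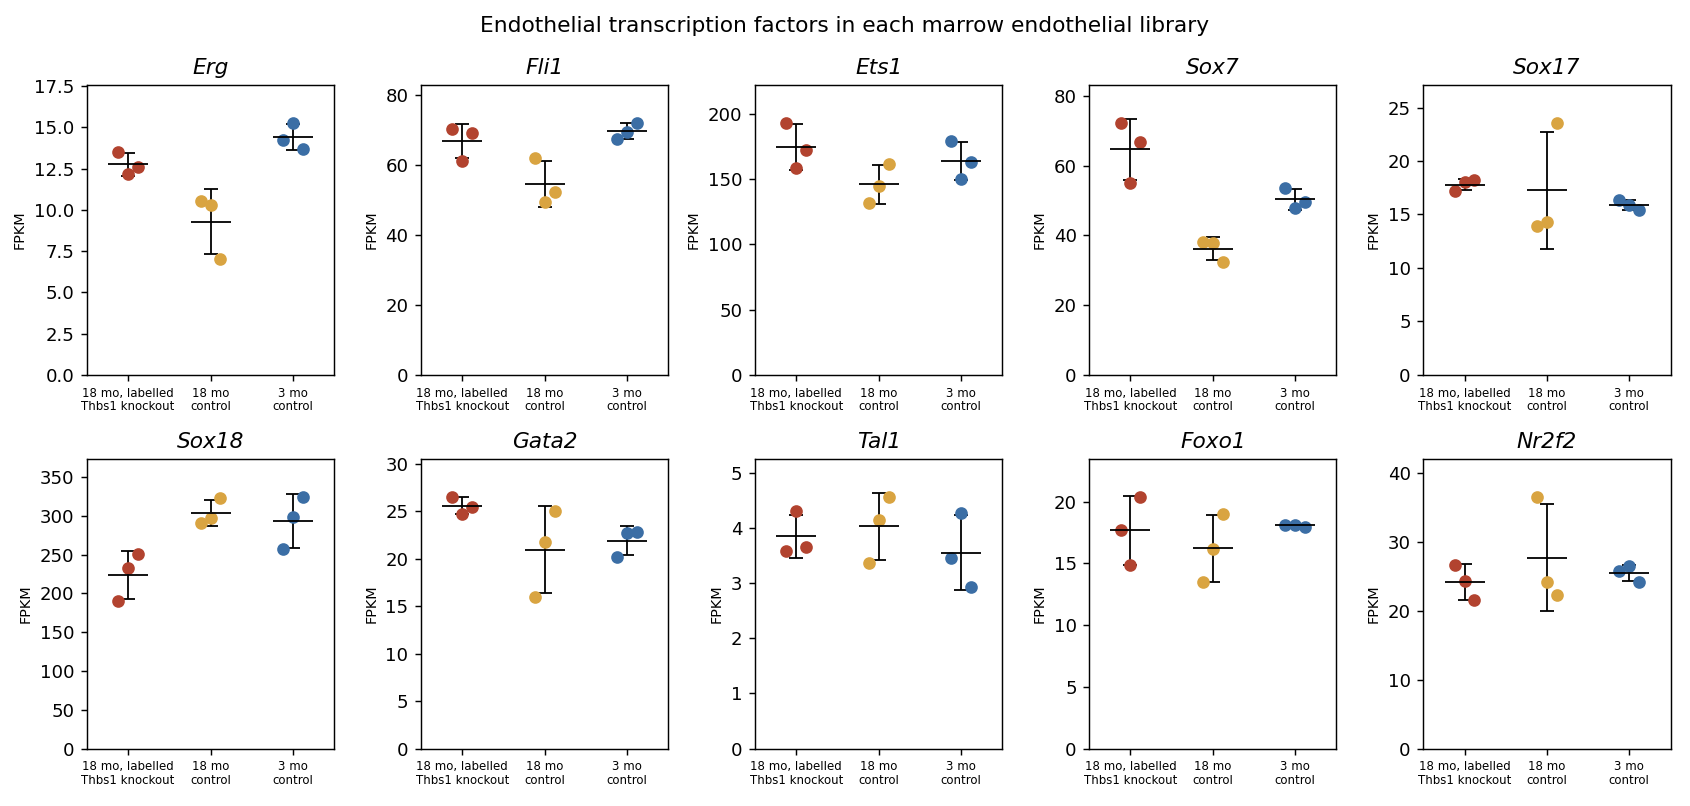
Deposited FPKM of the 10 transcription factors in each library (points), with the group mean (long bar) and SD (error bar), for the labelled knockout group, the aged controls and the young controls (n = 3 each). Every vertical axis starts at 0. Sox7 was highest in the labelled knockout group at 55.07 to 72.30 FPKM and lowest in the aged controls at 32.37 to 38.15 FPKM.

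The factors were tested in 3 comparisons with limma on log2(FPKM + 1), with p adjusted by Benjamini-Hochberg over all genes tested and a threshold of 0.05. A gene past that threshold is termed called. The first 2 comparisons share the aged controls, so a high or low aged control library enters both with opposite sign. In aged against young controls, 1 of the 10 factors, Erg, was called lower and 0 were called higher, where 2.8% of all genes tested were called lower and 1.2% higher, or 3.99% in all. That split over all genes, 141 higher and 330 lower, was 215 higher and 200 lower with median-ratio scaling and 160 higher and 199 lower with quantile normalization. In labelled knockout against aged controls, 1 of the 10, Sox7, was called higher and 0 lower, where 2.78% of all genes were called higher and 2.01% lower, or 4.79% in all. In labelled knockout against young controls limma called 0 of the 10, where 0.212% of all genes were called in either direction. An unadjusted p under 0.05 was reached by 3 factors in aged against young (Erg, Fli1 and Sox7), where 27.7% of all genes reached it. In labelled knockout against aged controls 5 factors did (Erg, Fli1, Ets1, Sox7 and Sox18), where 24.1% of all genes did, and in labelled knockout against young controls 2 did (Sox7 and Sox18), where 9.27% did. In this last comparison limma-voom on recovered fragments also called 0 factors.

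Groups without overlap were likewise read against all genes. Erg, Fli1 and Sox7 lay lower in every aged control than in every young control, 3 of the 10, where 21.8% of all genes did and 35.7% had no overlap in either direction. Erg and Sox7 lay above every aged control in every labelled knockout library, 2 of the 10, against 12.1% of all genes, and Sox18 lay below, 1 of the 10, against 11.1%. Against the young controls, Sox7, Sox17 and Gata2 lay above, 3 of the 10 where 8.46% of all genes did, and Erg and Sox18 lay below, 2 of the 10 where 14% did. The median difference of the 10 factors was -0.12 on the log2(FPKM + 1) scale for aged against young, beside -0.045 over all genes tested. It was 0.19 for labelled knockout against aged, beside 0.0025 over all genes, and 0.024 for labelled knockout against young, beside -0.033 over all genes.

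**Figure D2:**
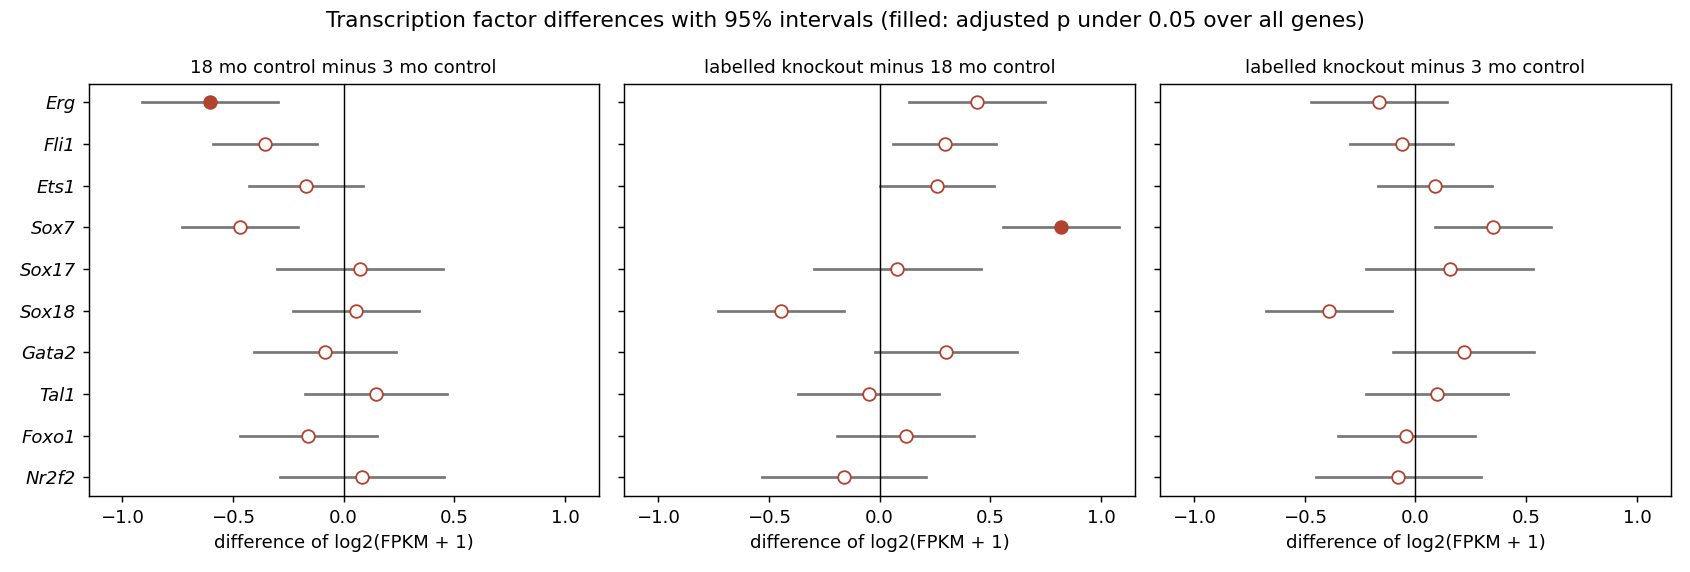
Difference of log2(FPKM + 1) for each factor in the 3 comparisons, with the 95% interval from limma (3 against 3 libraries, 1 fit of all 9). Filled points passed an adjusted p of 0.05 over all genes tested: Erg in aged against young controls at -0.60, and Sox7 in labelled knockout against aged controls at 0.82.

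Erg, an ETS factor needed for vessel stability, was lower in the libraries labelled aged control than in the young controls. It had 10.53, 10.29 and 7.03 FPKM in the aged controls, against 14.22, 15.28 and 13.71 FPKM in the young controls. The groups did not overlap, and aged control 3 was the lowest of the 9 libraries. Aged controls averaged 9.28 ± 1.96 FPKM and young controls 14.4 ± 0.801 FPKM (SD, n = 3 each), a ratio of 0.645. The difference was -0.60 ± 0.137 (SE) on the log2(FPKM + 1) scale, with a 95% interval of -0.91 to -0.29 and an adjusted p of 0.0447 by limma.

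That Erg call lay close to the threshold. It held in 3 of 9 fits with 1 library left out and was lost in the other 6, with an adjusted p of 0.153, 0.158 and 0.126 without young control 1, 2 and 3, 0.0526 and 0.0603 without aged control 2 and 3, and 0.0698 without labelled knockout library 3, by limma. Without young control 1, 2 and 3, 0, 3 and 3 of all genes were called higher and 5, 28 and 9 lower. With all 9 libraries 141 were called higher and 330 lower. The Erg difference in those fits was -0.61, -0.56 and -0.63. Without aged control 3 the Erg difference was -0.43, and it was negative in all 9 fits with 1 library left out. The call was also lost in 5 of 9 other settings, among them the fits without a filter on low genes, with median-ratio or quantile scaling and in the fit of these 2 groups alone, at an adjusted p of 0.208, 0.0579, 0.0617 and 0.0597 by limma.

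In the labelled knockout libraries Erg had 13.49, 12.15 and 12.62 FPKM, each above every aged control and below every young control. The mean of 12.8 ± 0.680 FPKM was 1.37 times the aged control mean of 9.28 ± 1.96 FPKM. The difference was 0.44 ± 0.137 (SE), with a 95% interval of 0.13 to 0.74 and an adjusted p of 0.0952 by limma, short of the threshold. Against the young controls it was -0.16 ± 0.137 (SE; adjusted p = 0.750 by limma), which is also a comparison of 18 with 3 months and was not called. Erg was counted from 599 to 1310 fragments per library, for a counting error of at most 4.09%, which is smaller than the spread among aged controls.

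The Erg gene lies on chromosome 16 at 95359169 to 95586593 of GRCm38, on the minus strand, and the RefSeq table for GRCm38.p6 holds 3 starts for it. The 250 bases before each start are shown because Erg is the ETS factor that was called in aged against young controls, written 5′ to 3′ on the strand of the gene, with the matches to 6 searched motifs in capitals.
Erg start 1, chr16:95586594-95586843: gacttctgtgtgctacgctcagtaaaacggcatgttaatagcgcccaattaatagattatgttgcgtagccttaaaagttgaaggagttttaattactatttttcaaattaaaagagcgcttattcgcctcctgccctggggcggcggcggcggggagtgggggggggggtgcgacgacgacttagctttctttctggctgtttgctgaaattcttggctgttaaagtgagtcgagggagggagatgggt
Erg start 2, chr16:95530366-95530615: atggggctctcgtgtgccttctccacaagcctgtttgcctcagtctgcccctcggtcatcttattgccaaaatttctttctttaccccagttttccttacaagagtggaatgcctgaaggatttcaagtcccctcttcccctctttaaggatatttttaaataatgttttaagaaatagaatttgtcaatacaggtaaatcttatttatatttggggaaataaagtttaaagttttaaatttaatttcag
Erg start 3, chr16:95459349-95459598: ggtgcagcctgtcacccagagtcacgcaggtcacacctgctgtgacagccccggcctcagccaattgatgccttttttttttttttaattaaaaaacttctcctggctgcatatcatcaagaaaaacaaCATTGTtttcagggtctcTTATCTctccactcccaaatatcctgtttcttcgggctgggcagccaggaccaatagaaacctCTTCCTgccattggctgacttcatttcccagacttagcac
The motifs were searched on both strands. The ETS motif AGGAAG occurs in 29.5% of 32851 promoter windows of the same length, and its variant CGGAAG in 13.6%. The GATA motif AGATAA occurs in 9.99% of them and the SOX motif ACAATG in 10.7%. The FOXO motif GTAAACA occurs in 3.17% and the E-box CAGATG, of the kind that TAL1 binds, in 14.4%. The window at start 3 holds 1 match each to the SOX motif, the GATA motif and the first ETS motif, in that order and all on the opposite strand. The windows at starts 1 and 2 hold 0 matches to the 6 motifs. The GGAA core alone was not searched, and the window at start 2 does hold it. Such matches describe the letters only, and the FPKM values do not show which start was used.

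Fli1, the ETS factor closest to Erg, stood lower in the aged controls without passing the test. It had 61.96, 49.30 and 52.13 FPKM in the aged controls, against 67.44, 69.44 and 71.98 FPKM in the young controls, without overlap. The difference was -0.35 ± 0.104 (SE), with a 95% interval of -0.59 to -0.12 and an adjusted p of 0.0772 by limma. Aged control 1 was the highest of its group, and without that library the difference was -0.45 and the adjusted p 0.0439 by limma. That was the only call in 9 fits with 1 library left out, where adjusted p reached 0.211 by limma. Fli1 was called in 0 of 9 other settings. In the labelled knockout libraries Fli1 had 70.20, 61.07 and 69.06 FPKM, which overlapped the aged controls. The difference from the aged controls was 0.29 ± 0.104 (SE; 95% interval 0.060 to 0.53; adjusted p = 0.128 by limma), and from the young controls -0.06 ± 0.104 (SE; adjusted p = 0.887 by limma).

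Ets1, the most abundant of the 3 ETS factors and also active in lymphocytes, overlapped between groups in every comparison. It had 193.31, 158.52 and 172.52 FPKM in the labelled knockout libraries, 131.46, 144.99 and 161.71 FPKM in the aged controls, and 179.24, 149.94 and 163.12 FPKM in the young controls. Differences were -0.17 ± 0.115 (SE) for aged against young, with an adjusted p of 0.365, and 0.26 ± 0.115 for labelled knockout against aged, with an adjusted p of 0.206 by limma. For labelled knockout against young the difference was 0.09 ± 0.115 (SE), with an adjusted p of 0.846 by limma.

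Summed over Erg, Fli1 and Ets1, the level was 254.3 ± 22.6 FPKM in the labelled knockout group, 209.8 ± 9.59 FPKM in the aged controls and 248.1 ± 13.1 FPKM in the young controls (SD, n = 3 each). The aged control sums of 203.95 to 220.87 FPKM lay below all others, which began at 231.74 FPKM. Ets1 made up 68.7%, 69.5% and 66.1% of that sum in the 3 groups in the same order, and Erg 5.02%, 4.46% and 5.82%. The balance of a pair of factors was taken as the difference of their log2(FPKM + 1) within a library. For the 3 ETS pairs it overlapped between groups in all comparisons but 1, Erg over Ets1 in labelled knockout against young controls. That difference was -0.25, with a two-sided exact permutation p of 0.1 and an adjusted p of 0.225 over 18 balance tests. With 3 against 3 libraries 0.1 is the smallest p such a test can give, so no single value can pass 0.05.

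Sox7, a SoxF factor of early endothelial commitment, was higher in the labelled knockout group. It had 72.30, 55.07 and 66.72 FPKM in the labelled knockout libraries, against 38.15, 37.96 and 32.37 FPKM in the aged controls. No library of one group reached the other. The labelled knockout libraries averaged 64.7 ± 8.79 FPKM and the aged controls 36.2 ± 3.28 FPKM (SD, n = 3 each), a ratio of 1.79. The difference was 0.82 ± 0.117 (SE), with a 95% interval of 0.55 to 1.08 and an adjusted p of 0.00650 by limma. It was called in all 9 fits with 1 library left out, at 0.73 to 0.93, and in 8 of 9 other settings, the exception being the fit without a filter on low genes (adjusted p = 0.0905 by limma).

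Sox7 in the young controls lay between the others, at 53.62, 47.76 and 49.51 FPKM, and none of the 3 groups overlapped another. Aged against young controls differed by -0.47 ± 0.117 (SE; 95% interval -0.73 to -0.21), with an adjusted p of 0.0566 by limma. That value passed the threshold without labelled knockout library 1 (adjusted p = 0.0469) or library 2 (adjusted p = 0.0272), by limma. Those were the only 2 calls in 9 fits with 1 library left out, where adjusted p reached 0.194 by limma. Of 9 other settings 3 made the call. Labelled knockout libraries exceeded the young controls by 0.35 ± 0.117 (SE; 95% interval 0.087 to 0.61), with an adjusted p of 0.372 by limma.

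Sox18, known for its role in lymphatic development and the most abundant of the 10 factors, stood in the opposite order. It had 189.71, 232.30 and 250.53 FPKM in the labelled knockout libraries, against 290.67, 297.54 and 323.13 FPKM in the aged controls, without overlap. The difference was -0.44 ± 0.127 (SE; 95% interval -0.73 to -0.16), with an adjusted p of 0.0764 by limma. The young controls had 256.73, 298.40 and 325.04 FPKM, so every labelled knockout library also lay below every young control, by -0.39 ± 0.127 (SE; adjusted p = 0.356 by limma). Aged and young controls overlapped, with a difference of 0.06 ± 0.127 (SE; adjusted p = 0.809 by limma) that was -0.06 with quantile normalization and -0.04 without young control 1. Sox18, at 181669836 to 181671640 of chromosome 2 on GRCm38, shares that chromosome with Thbs1, at a distance of 63.5 Mb, whereas Sox7 lies on chromosome 14 at 63943673 to 63950732.

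Sox17, a factor of arterial identity, turned on 1 library of the aged controls. It had 17.17, 18.02 and 18.20 FPKM in the labelled knockout libraries, 13.93, 14.28 and 23.58 FPKM in the aged controls, and 16.31, 15.90 and 15.44 FPKM in the young controls. Aged control 3 was the highest of all 9 libraries, and the other aged controls were the lowest. Differences were 0.07 ± 0.168 (SE; adjusted p = 0.808 by limma) for aged against young and 0.08 ± 0.168 (SE; adjusted p = 0.809 by limma) for labelled knockout against aged. Without aged control 3 these were -0.16 and 0.32, with adjusted p of 0.245 and 0.0653 by limma, and without aged control 1 or 2 the second was -0.04 or -0.03. Labelled knockout exceeded young controls by 0.15 ± 0.168 (SE; adjusted p = 0.817 by limma), without overlap.

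**Figure D3:**
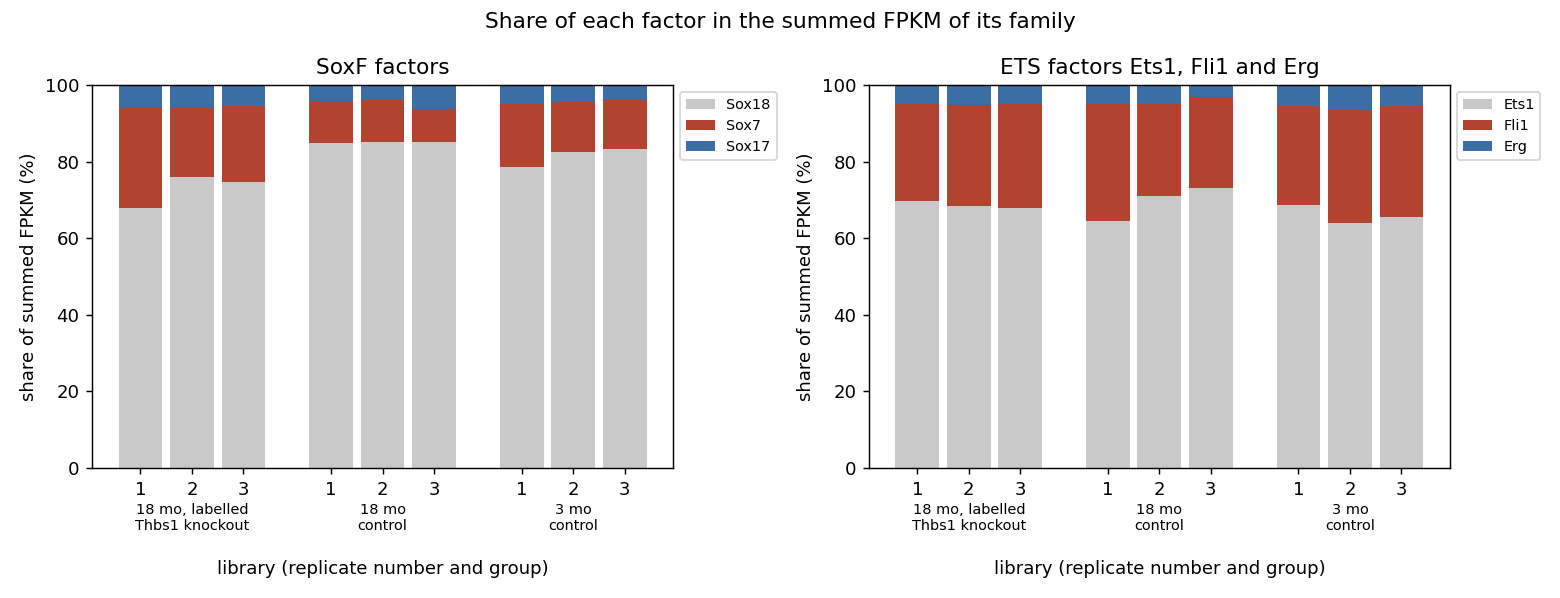
Share of each factor in the summed FPKM of its family in every library (stacked bars, percent of FPKM, replicates 1 to 3 of each group), SoxF factors in one panel and ETS factors in the other. The Sox7 share was 18 to 25.9% in the labelled knockout libraries, above the aged controls at 8.54 to 11.1% and the young controls at 12.7 to 16.4%.

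The shares of the SoxF factors in their summed level were compared next. Sox7 made up 21.3 ± 4.12% of SoxF FPKM in the labelled knockout libraries, 10.2 ± 1.42% in the aged controls and 14.1 ± 2.01% in the young controls (SD, n = 3 each), with no overlap between any groups. Sox18 made up 72.9 ± 4.33%, 85.03 ± 0.208% and 81.4 ± 2.495% in the same order of groups. The sum of the 3 factors was 306.7 ± 28.2 FPKM in the labelled knockout libraries, 357.2 ± 19.3 FPKM in the aged controls and 359.6 ± 31.7 FPKM in the young controls. Sox7 over Sox18 was higher in labelled knockout than in aged controls by 1.26 on the log2(FPKM + 1) scale, higher than in young controls by 0.74, and lower in aged than in young controls by 0.52. Each of those 3 differences had no overlap, a two-sided exact permutation p of 0.1 and an adjusted p of 0.225 over the 18 tests. Sox7 over Sox17 differed by 0.74 between labelled knockout and aged controls, also without overlap, while labelled knockout and young controls overlapped, at a difference of 0.19. Aged controls lay below young controls by 0.54 in that balance, without overlap. Sox17 over Sox18 was higher in labelled knockout than in aged controls by 0.53 and than in young controls by 0.54, both without overlap. For all these SoxF balances without overlap the exact permutation p was 0.1 and the adjusted p 0.225. As 0.1 is the smallest p that 3 against 3 libraries can give, none could pass, and the test cannot decide on them.

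Gata2, a regulator of endothelial and blood stem cell genes, was even across the labelled knockout libraries at 26.58, 24.74 and 25.52 FPKM. The aged controls spread from 16.00 to 25.05 FPKM and the young controls from 20.15 to 22.86 FPKM. Every labelled knockout library lay above every young control and not above every aged control. Differences were -0.08 ± 0.143 (SE) for aged against young, 0.30 ± 0.143 for labelled knockout against aged and 0.22 ± 0.143 for labelled knockout against young, with adjusted p of 0.742, 0.234 and 0.678 by limma. The first of these was 0.09 without aged control 1, the lowest library. Tal1, a basic helix-loop-helix partner of GATA factors, was the lowest of the 10 factors at 3.58 to 4.30 FPKM in the labelled knockout libraries, 3.36 to 4.57 FPKM in the aged controls and 2.93 to 4.28 FPKM in the young controls. Its groups overlapped in all 3 comparisons, with adjusted p of 0.536, 0.868 and 0.867 by limma in the same order. It rested on 307 to 573 fragments per library, for a counting error of at most 5.71%.

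Foxo1, a forkhead factor that keeps endothelial cells quiescent, differed by no more than its spread. It had 14.85 to 20.41 FPKM in the labelled knockout libraries, 13.51 to 18.97 FPKM in the aged controls and 17.94 to 18.14 FPKM in the young controls. The young controls lay close together, with an SD of 0.1102 FPKM, against 2.78 FPKM in the labelled knockout libraries and 2.73 FPKM in the aged controls. Adjusted p was 0.481 for aged against young, 0.638 for labelled knockout against aged and 0.948 for labelled knockout against young, by limma. Nr2f2 had 21.53 to 26.67 FPKM in the labelled knockout libraries, 22.29 to 36.60 FPKM in the aged controls and 24.15 to 26.53 FPKM in the young controls. Aged control 1 was the highest of the 9, and adjusted p was 0.775, 0.589 and 0.919 by limma in the same order of comparisons. Without aged control 1 the Nr2f2 difference was -0.13 for aged against young, beside 0.08 with it, and 0.05 for labelled knockout against aged, beside -0.16 with it. For Gata2, Tal1, Foxo1 and Nr2f2 the 95% intervals of all 3 differences included 0. Those of Nr2f2 were the widest of the 4, from -0.53 to 0.21 in labelled knockout against aged controls. Genes on the opposite strand overlap exons of Sox17, Foxo1 and Nr2f2, and these reached at most 0.43, 0.16 and 0.87 FPKM.

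**Figure D4:**
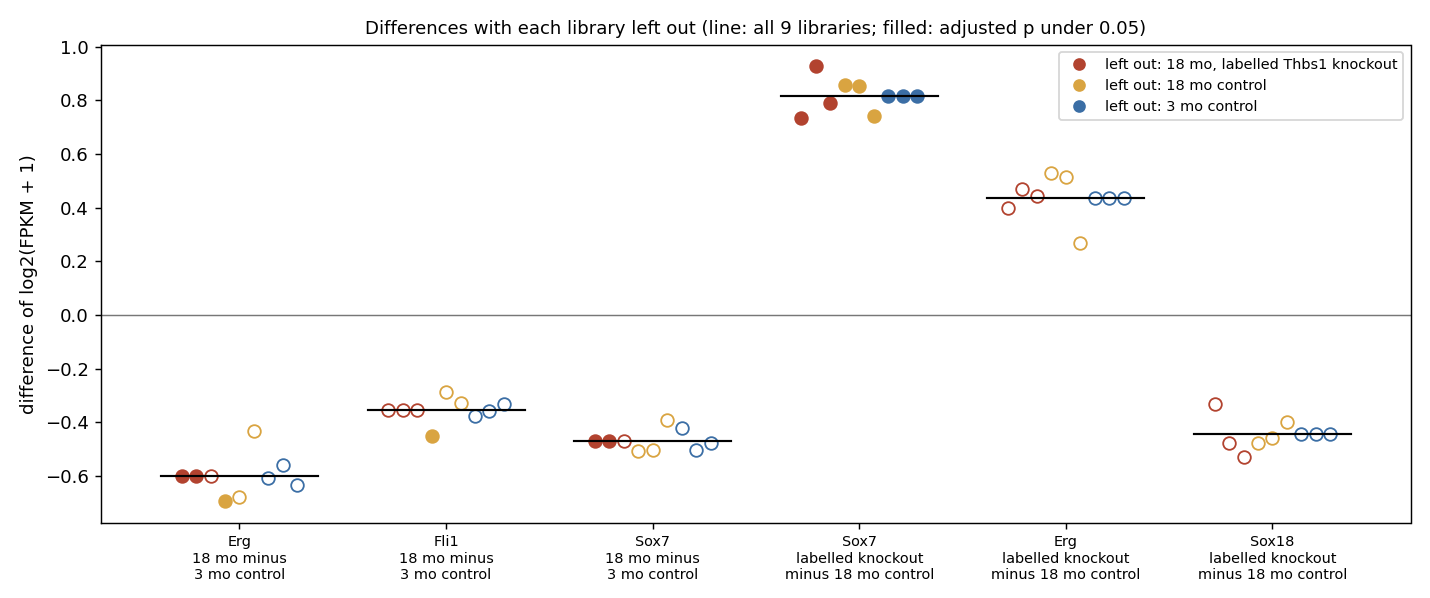
Difference of log2(FPKM + 1) with each library left out in turn (points, coloured by the group of the library left out, filled where the adjusted p was under 0.05), beside the value from all 9 libraries (line), for Erg, Fli1 and Sox7 in aged against young controls and for Sox7, Erg and Sox18 in labelled knockout against aged controls. Sox7 in labelled knockout against aged controls was filled in all 9 fits, and Erg in aged against young controls in 3 of 9.

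Related factors were read from 7 lists of other members of the same families, partners and further endothelial factors, 74 genes of which 48 were tested. In aged against young controls 4 were called lower and 0 higher, or 8.33%, beside 3.99% of all genes. In labelled knockout against aged controls 5 were called higher and 0 lower, or 10.4%, beside 4.79% of all genes, and in labelled knockout against young controls 0 were called. The median difference of the 48 was -0.14, 0.17 and 0.019 in these comparisons, beside -0.045, 0.0025 and -0.033 over all genes tested. At an unadjusted p under 0.05 the counts were 15, 19 and 2 of the 48, where 27.7%, 24.1% and 9.27% of all genes reached it. Of the 48, limma-voom called 5, 5 and 0.

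Among 13 tested of 22 other ETS factors, Elf1 and Elf2 were lower in the libraries labelled aged control than in the young controls, and Elf1, Elf2 and Erf were higher in labelled knockout than in aged controls. Elf2 averaged 13.3 ± 0.332 FPKM in the labelled knockout libraries, 7.997 ± 1.99 FPKM in the aged controls and 15.3 ± 0.159 FPKM in the young controls. Its difference was -0.88 for aged against young and 0.69 for labelled knockout against aged, with adjusted p of 0.0191 and 0.0250 by limma. Elf1 averaged 19.1 ± 1.93, 14.0 ± 1.07 and 19.7 ± 0.947 FPKM in the same order of groups, with differences of -0.47 and 0.42 and adjusted p of 0.0418 and 0.0490 by limma. Labelled knockout against young controls gave -0.19 for Elf2 and -0.05 for Elf1 (adjusted p = 0.711 and 0.919 by limma). Erf, a repressor with an ETS domain, averaged 2.35 FPKM in labelled knockout and 1.32 FPKM in aged controls (adjusted p = 0.0381 by limma). Ets2, the most abundant of the list at a mean of 144.7 FPKM, was not called. The median difference of the 13 was -0.29 for aged against young and 0.36 for labelled knockout against aged, beside -0.045 and 0.0025 over all genes tested.

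The other lists are small, with at most 1 gene called in a comparison, so a share of a list is coarse beside the 3.99% and 4.79% of all genes called in the first 2 comparisons. Of 4 tested other Sox genes, Sox8 was higher in labelled knockout than in aged controls, at 2.37 FPKM in labelled knockout and 1.12 FPKM in aged controls (adjusted p = 0.0281 by limma), while Sox4 was the most abundant at a mean of 16.6 FPKM and Sox2 and Sox10 were listed at 0 in all libraries. Of 3 tested other GATA-related genes, Zfpm2, a GATA cofactor, was lower in aged than in young controls, at 5.50 FPKM in aged and 7.94 FPKM in young controls (adjusted p = 0.0382 by limma), and Gata5 was listed at 0 in all libraries. None of 9 genes listed around the LMO2 and LDB1 complex of Tal1 was called by limma or limma-voom. At most 2 of them had an unadjusted p under 0.05 in a comparison, and Ldb2 was the most abundant at 118.2 FPKM. None of 4 tested other forkhead genes and neither of the other NR2F genes was called by limma or limma-voom, with 0 at an unadjusted p under 0.05. Foxc1 and Nr2f6 led these lists at means of 10.4 and 5.45 FPKM. Of 13 tested further endothelial factors, Hhex was lower in aged than in young controls, at 51.7 FPKM in aged and 71.7 FPKM in young controls (adjusted p = 0.0436 by limma). Prox1, the regulator of lymphatic identity, was higher in labelled knockout at 2.53 ± 1.14 FPKM than in aged controls at 0.567 ± 0.201 FPKM (adjusted p = 0.0201 by limma), with the lymphatic markers Pdpn, Lyve1 and Reln near 0 as given above.

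With 1 library left out, the Elf2 calls held in 6 of 9 fits for aged against young and in 5 of 9 for labelled knockout against aged, and the Prox1 call in 8 of 9, the exception being the fit without aged control 1 (adjusted p = 0.0533 by limma). Elf1 kept its 2 calls in 2 and 1 of 9 fits, Erf in 1, Sox8 in 2, Zfpm2 in 3 and Hhex in 3, and every difference kept its sign. In aged against young controls, 5, 28 and 9 of all genes were called lower without young control 1, 2 and 3. With all 9 libraries 330 were.

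Lists of pan-endothelial, arterial and venous genes and of targets of FOXO factors were read beside 3.99%, 4.79% and 0.212% of all genes called in the 3 comparisons. Of 23 pan-endothelial genes, many with ETS sites, Cldn5, a tight junction gene, had 476.1 ± 81.3 FPKM in labelled knockout, 810.3 ± 49.6 FPKM in aged controls and 483.6 ± 20.0 FPKM in young controls. It was called higher in aged than in young controls (0.74, adjusted p = 0.0232) and lower in labelled knockout than in aged controls (-0.78, adjusted p = 0.00897), by limma. The first call was lost without any 1 of the 3 young controls, at an adjusted p of up to 0.113 by limma, and the second held in all 9 fits. Without young control 1, 2 and 3, 0, 3 and 3 of all genes were called higher in aged against young, beside 141 with all libraries. Both Cldn5 differences kept their sign in all 9 fits. Cd34 was called higher in labelled knockout, at 26.5 ± 10.8 FPKM against 10.9 ± 4.56 FPKM in aged controls (1.21, adjusted p = 0.0494 by limma), a call kept in 2 of 9 fits with 1 library left out. Plvap, a gene of fenestrated endothelium, was the most abundant at a mean of 2695 FPKM. The list's median difference was 0.068 for aged against young and 0.0028 for labelled knockout against aged, beside -0.045 and 0.0025 over all genes tested. Of 11 tested targets of FOXO factors, Ccng2 and Trib1 were higher in labelled knockout than in aged controls, Ccng2 at 29.9 FPKM in labelled knockout and 20.3 FPKM in aged controls (adjusted p = 0.0316 by limma) and Trib1 at 36.9 and 14.8 FPKM in these groups (adjusted p = 0.00580 by limma). The Trib1 call held in 9 of 9 fits with 1 library left out and the Ccng2 call in 2 of 9. Txnip, Dll4 and Tek led the FOXO target, arterial and venous lists at means of 881.4, 52.1 and 155.8 FPKM. None of 9 tested arterial genes and none of 5 venous genes was called by limma in any comparison. These lists are not separate readouts. Aplnr, Flt4 and Tek are also pan-endothelial genes above, and Hey1 stands in the arterial list and among the further endothelial factors. At an unadjusted p under 0.05 the arterial genes numbered 2, 4 and 1 in the 3 comparisons and the venous genes 2, 0 and 0. Over all genes tested 27.7%, 24.1% and 9.27% reached it. In labelled knockout against aged controls limma-voom called 2 arterial genes.

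Gata2, Tal1, Fli1, Erg and Ets1 are also active in blood cells, and Nr2f2 in stromal cells, so markers of these cells were summed per library. The 11 megakaryocyte and erythroid markers summed to 103 to 204 FPKM in labelled knockout, 127 to 230 FPKM in aged and 164 to 175 FPKM in young libraries, and 1 of 6 tested, Epor, was lower in labelled knockout than in aged controls, in 2 of 9 fits with 1 library left out. The 7 mast cell and progenitor markers summed to 13.9 to 24.6, 13.3 to 14.8 and 10.47 to 22.4 FPKM, the 10 lymphocyte markers to 5.62 to 34.4, 24.7 to 81.8 and 6.03 to 44.0 FPKM, and the 8 myeloid markers to 42.4 to 131, 63.9 to 213 and 31.4 to 162 FPKM, in the same order of groups. Of these 3 lists limma called 0 genes, with at most 2 at an unadjusted p under 0.05, and limma-voom called 1, a lymphocyte marker in aged against young. The 12 stromal, fat and mural markers summed to 9.23 to 20.3, 18.1 to 19.3 and 33.2 to 41.3 FPKM. Of 4 tested, Adipoq, a fat cell gene, was called lower in each comparison, with 3.76 FPKM in labelled knockout, 5.97 FPKM in aged and 13.1 FPKM in young libraries. Its call in labelled knockout against aged controls held in 1 of 9 fits with 1 library left out and was not made by limma-voom. All 4 had an unadjusted p under 0.05 in both comparisons with the young controls. Of all genes, 27.7% did in aged and 9.27% in labelled knockout against young controls. The most abundant markers were Hbb-bs, Kit, Jchain and S100a8, at means of 67.1, 5.31, 27.4 and 28.9 FPKM, and in the lymphatic list Flt4 at 152.6 FPKM, which other endothelial cells also express. The part of these cells in the values of the 10 factors was not tested. In sorted bulk samples fewer cells of a type and less RNA per cell cannot be told apart.

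The genes whose profiles over the 9 libraries were most like those of Erg and Sox7 were found by the root mean square difference of centred log2(FPKM + 1). For Erg they were Chuk at 0.042, Rbm18 at 0.065 and Kdm3a at 0.066. Chuk, a kinase of the NF-kappa-B pathway, averaged 14.4 FPKM in labelled knockout, 10.9 FPKM in aged and 16.3 FPKM in young libraries. For Sox7 they were Spata2 at 0.085, Eif2ak4 at 0.091 and Gja1 at 0.10. Gja1, the gene for the gap junction protein connexin 43, averaged 88.0 FPKM in labelled knockout, 56.8 FPKM in aged and 68.4 FPKM in young libraries. Eif2ak4 lies 0.261 Mb from Thbs1 on chromosome 2 and Spata2 49.4 Mb. These likenesses are descriptions over 9 libraries that share the groups.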

How the data were processed

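RNA of sorted marrow endothelial cells was made into libraries with a low-input full-length cDNA kit, per the labels' protocols. The authors deposited FPKM values for 52183 genes. FastQC 0.11.5, STAR and edgeR are named in the submitters' processing notes, with the builds GRCm38 and mm10 and no roles. How fragments were counted, and with what strand setting, is not given in the sources used here. All gene identifiers matched GENCODE M21 (GRCm38), the source of coordinates and exon lengths.

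Depth was recovered from FPKM. In genes of 60 to 400 bases, 99.5% to 99.8% of low values per library were whole multiples of 1 fragment within 0.1. FPKM values are not counts, so the main test was not a count test, and limma-voom on the recovered fragments was an alternative. Counting errors cover counting only.

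One limma 3.58.1 fit (R 4.3.3, eBayes with trend, 6 residual degrees of freedom) of log2(FPKM + 1) for the 11796 genes averaging 1 FPKM or more gave the 3 comparisons, with Benjamini-Hochberg adjustment over all genes and a threshold of 0.05. The code was tested on simulated data. Single values were tested by two-sided exact permutation. Named genes are the 10 factors, up to 3 called genes and the most abundant gene of each list, the most abundant marker of each cell type and markers listed at 0, and the 3 profiles most like each called factor. Defining markers and called genes of the cell marker lists were named as well, chosen after their values were seen. One gene that this rule names is not reported here. The factors and lists were chosen with earlier results of these data known. Alternatives were scaling by median ratio or quantiles, other pseudocounts (0.1, 5), dropping the filter or raising it to 5 FPKM, a replicate block, fitting only the groups compared, limma-voom on recovered fragments, and leaving out each library. Promoter windows are from RefSeq. The plots used matplotlib 3.10.9 under Python 3.11.15.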

Additional observations from a re-analysis of the deposited data

How the results depend on the processing

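In aged against young controls, 1 of the 10 factors was called lower. The number was 0 without a filter, with median-ratio scaling, with quantile normalization and with the replicate block, and 2 with a mean of at least 5 FPKM and with limma-voom, where Sox7 joined Erg. In the fit of these groups alone it stayed 1, but the factor called was Sox7 (adjusted p = 0.0424 by limma) and not Erg (0.0597), and with the replicate block the Erg adjusted p was 0.0614. The Erg adjusted p by limma ran from 0.0307 to 0.208 over these 9 settings. With 1 library left out the number ran from 0 to 2. Over all genes, 141 were called higher and 330 lower, against 4 and 51 without a filter, 215 and 200 with median-ratio scaling, 199 lower with quantile normalization, 258 higher in the fit of these groups alone, and 52 and 131 with the replicate block. With 1 library left out they ran from 0 to 366 higher and 5 to 673 lower. Median-ratio scaling moved the split between higher and lower calls past an even share.

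In labelled knockout against aged controls, 1 factor, Sox7, was called higher in all settings but the fit without a filter, which called 0. The replicate block added 1 lower call, Sox18 (adjusted p = 0.0499 by limma). Over all genes, 328 were called higher and 237 lower, against 28 and 6 without a filter, 112 and 37 in the fit of these groups alone, and 156 lower with the replicate block. With 1 library left out they ran from 134 to 596 higher and 63 to 563 lower, with 1 factor called in each fit. In labelled knockout against young controls 0 factors were called in any setting, and over all genes 10 were called higher and 15 lower, against 39 lower without a filter and 5 and 7 with a mean of at least 5 FPKM. With 1 library left out they ran from 7 to 13 higher and 4 to 18 lower. Without a filter many genes near 0 enter the fit and the adjustment. The cause of the shifts, with that setting or any other, was not tested.

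Replicate numbers were not treated as pairs in the main fit. Deviations of libraries with the same number correlated at -0.129 to 0.124 over 9 pairs, and of other numbers at -0.213 to 0.173 over 18 pairs. As the deviations were taken from means of 3 libraries, these ranges cannot exclude pairing. Among differences that were not called, 11 of 28 changed sign in 1 or 2 settings. Depth limits Tal1 most.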
